A study of Mus musculus with 4 samples.

Results

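The steroid and 17-beta hydroxysteroid dehydrogenases of the mouse liver were described from 10 genes, Hsd17b2, Hsd17b6, Akr1c6, Hsd11b1, Hsd3b7, Akr1d1, Hsd17b10, Hsd17b12, Hsd17b11 and Hsd17b13. Every probe set whose annotated symbol was 1 of these names was taken, which gave 15 probe sets out of 22626 tested, and 10 genes out of 12393 with a single symbol. The genes were picked with the starved and control values of these livers already known, so their changes are given as a description. The livers came from 2 wild-type mice starved for 24 h and from 2 wild-type control mice, all 1 month old and of the C57/BL6 background. The labels name biological replicates and give no sex. Their description field calls the starved mice injected and the control mice not injected, without naming an agent, so an injection, if there was one, cannot be told apart from starvation. Levels are log2 RMA signals of an Affymetrix array, on which 1 unit is a doubling, and every change is given as starved minus control, between group means.

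Hydroxysteroid dehydrogenases add or remove hydrogen at a set position of the steroid ring, and so switch a hormone between an active hydroxyl form and a weaker keto form, or the reverse. Most belong to the short-chain dehydrogenase/reductase family, while Akr1c6 and Akr1d1 are aldo-keto reductases. The liver uses them to clear sex steroids, to regenerate glucocorticoid and to build bile acids from cholesterol. Several members with a 17-beta name act mainly on fatty acyl-CoA or sit on lipid droplets.

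No member passed the adjusted test, and the directions below are those of the measured means. Hsd17b10, the 1 mitochondrial member, stood 2.48-fold and 2.88-fold higher on its 2 probe sets, and Hsd17b11, of the endoplasmic reticulum and lipid droplets, 1.78-fold and 1.83-fold higher. Hsd17b2 stood 1.66-fold lower, and Hsd17b12 1.45-fold and 1.64-fold lower. Hsd11b1 differed by less than the spread between the control livers. By the sign of the change, however small, 4 genes were higher on every probe set and 6 were lower. Of all probe sets, 11494 were higher and 11132 lower.

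No member probe set was called in limma at an adjusted p under 0.05, a threshold that 13 of all probe sets, or 0.0575%, passed (4 higher, 0.0177%, and 9 lower, 0.0398%). At an unadjusted p under 0.05 there were 5 higher and 3 lower member probe sets in limma, where 5.42% and 6.04% of all probe sets stood, or 11.5% in either direction. Both starved arrays lay above both control arrays in 6 member probe sets and below them in 5, against 21.3% and 20.6% of all probe sets, so that 11 of 15 had groups apart, against 41.9% of all. A change of over 0.5 in size was found in 8 member probe sets and in 6.22% of all. These shares are printed for scale, since the members were picked on the same comparison. The members' median change was -0.03 on the log2 scale beside 0.00 for all probe sets, and the median size of a change, sign aside, was 0.53 beside 0.13. Without control 1, both Hsd17b10 probe sets were called, and without any other single array no member was.

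The arrays were alike in distribution, with medians of 6.71 to 6.74, and Pearson's r over probe sets lay between 0.986 and 0.994. Hepatocyte markers read 12.4 to 15.3 on all arrays, and those of the adrenal cortex, the other steroid-making tissue considered, 4.16 to 7.78. Control 2 stood apart in acute phase genes, whose 21 probe sets averaged 10.99 and 11.29 on the starved arrays, and 11.41 on control 1 and 12.72 on control 2. Actin, read near both ends of its transcript as a check on RNA quality, had a 3′ signal above its 5′ signal by 2.06 and 1.85 on the starved arrays and 1.79 and 1.76 on the control arrays. The part of either in the member values was not tested. The plot of member changes with their SE shows, for every member probe set, the change with each array left out. The text gives only some of these values. Over 10 marker lists of other cell types, 0 of 76 probe sets passed the adjusted limma test, with 8 higher and 4 lower at an unadjusted p under 0.05. Among them were Lyve1 of endothelial cells at 1.81 and Col3a1 of stellate cells at -1.53. These 2 genes did not stand for their lists, whose median changes were -0.03 for endothelial and -0.10 for stellate cells. The other Lyve1 probe set gave 1.09 and the other Col3a1 probe set -0.16. The Y-linked gene Eif2s3y read 9.27 and 9.91 on the starved arrays and 9.70 and 9.77 on the control arrays, and Xist was at most 5.83.

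**Figure D1:**
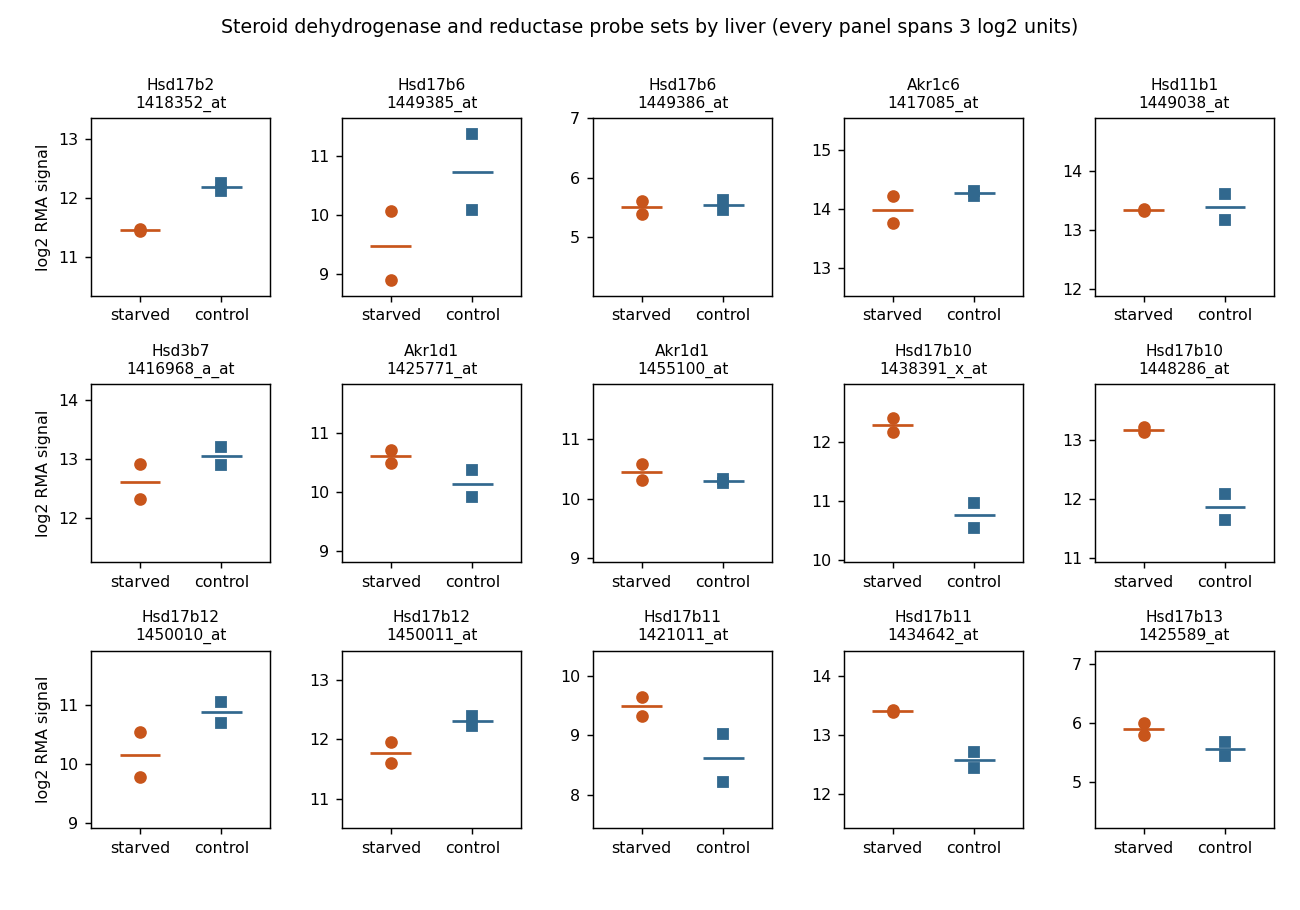
Log2 RMA signal of each of the 15 member probe sets in the starved livers (orange circles, left) and the control livers (blue squares, right), 1 point per liver, with a line at each group mean. Every panel spans 3 log2 units, so distances compare between panels. The largest gaps between groups are those of Hsd17b10, at 1.31 and 1.53, and the widest spread within groups is that of Hsd17b6 1449385_at.

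Among enzymes of sex steroids, Hsd17b2 gave the steadiest values. It oxidises estradiol and testosterone to their weaker 17-keto forms in the endoplasmic reticulum membrane. Its probe set 1418352_at read 11.48 and 11.45 in starved livers and 12.12 and 12.26 in control livers. The groups were apart by far more than the gap inside either one, which was 0.03 among starved and 0.14 among control livers. The change was -0.73 ± 0.12 (SE of the limma fit, n = 2 per group), and ran from -0.80 to -0.66 when any 1 array was left out. Of all probe sets, 1.38% had a lower change.

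Hsd17b6, an oxidoreductase of androgens that is close in sequence to retinol dehydrogenases, was read by a pair of probe sets that did not give the same picture. The brighter, 1449385_at, read 10.06 and 8.90 in starved livers and 11.37 and 10.09 in control livers. Starved 1 and control 2 were thus only 0.02 apart, and both groups held a spread of over 1 unit. Its change of -1.25 ± 0.52 (SE) came to -0.60 without control 1, -0.66 without starved 2, -1.83 without starved 1 and -1.89 without control 2, so its size rested on single livers. The dimmer, 1449386_at, read 5.61 and 5.39 in starved livers and 5.62 and 5.45 in control livers, which overlapped, with a change of -0.03 ± 0.14. That signal lay below the median of each array, and whether it measured the transcript cannot be told from a summary value.

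Akr1c6 is the cytosolic mouse 17-beta hydroxysteroid dehydrogenase of the aldo-keto reductase family. Probe set 1417085_at read 13.75 and 14.21 in starved livers and 14.31 and 14.21 in control livers. Only starved 1 stood below the rest, since starved 2 and control 2 were level to the second decimal, so that Akr1c6 counts only barely among the probe sets with groups apart. The change of -0.28 ± 0.18 (SE) came to -0.05 without starved 1 and -0.51 without starved 2.

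The upstream windows of these genes are shown because they hold the letters that the motif search below counted. For Hsd17b6, whose pair of listed start sites gave overlapping windows, the more distal 1 is printed. Capitals mark CCAAT in either orientation, on GRCm38.p6, minus strand for Hsd17b6 (chr10:128007612-128007861) and plus strand for Akr1c6 (chr13:4434093-4434342), where TATAAA is in capitals too.
Hsd17b6: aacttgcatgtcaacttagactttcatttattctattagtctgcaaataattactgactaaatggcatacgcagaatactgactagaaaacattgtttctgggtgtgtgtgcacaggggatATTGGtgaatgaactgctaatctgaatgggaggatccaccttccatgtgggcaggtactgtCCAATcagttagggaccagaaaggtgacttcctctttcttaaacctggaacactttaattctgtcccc
Akr1c6: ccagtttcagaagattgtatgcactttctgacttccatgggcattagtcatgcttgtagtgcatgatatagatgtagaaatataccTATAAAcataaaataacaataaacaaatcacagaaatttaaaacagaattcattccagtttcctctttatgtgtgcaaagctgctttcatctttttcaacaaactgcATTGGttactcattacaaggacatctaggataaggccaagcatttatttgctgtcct

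Hsd11b1 regenerates active corticosterone from its inert 11-keto form and so sets glucocorticoid tone in the hepatocyte. Probe set 1449038_at read 13.36 and 13.32 in starved livers, both of which lay between the control readings of 13.61 and 13.17. The change was -0.05 ± 0.17 (SE), and its sign turned to 0.17 without control 1, against -0.27 without control 2. H6pd, which supplies the enzyme with NADPH inside the endoplasmic reticulum, had a change of -0.14 ± 0.11 (SE), with an adjusted p = 0.714 in limma. The glucocorticoid receptor Nr3c1 was read by 3 probe sets, with changes of -0.23, -0.25 and -0.69, of which the last came from a dim probe set and had an adjusted p = 0.18 in limma.

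The bile acid enzymes had changes of opposite sign. Hsd3b7, which oxidises the 3-beta hydroxyl of hydroxylated cholesterol in the endoplasmic reticulum membrane, read 12.32 and 12.91 in starved livers and 12.90 and 13.19 in control livers on 1416968_a_at. The groups overlapped, since starved 2 lay just above control 1. The change of -0.43 ± 0.22 (SE) came to -0.14 without starved 1 and -0.72 without starved 2. Akr1d1, the cytosolic reductase that sets the bent ring shape of bile acids, read 10.71 and 10.48 in starved livers and 10.36 and 9.92 in control livers on 1425771_at. The groups were apart there, with a change of 0.46 ± 0.18 (SE) that came to 0.24 without control 2 and 0.68 without control 1. On 1455100_at Akr1d1 read 10.59 and 10.31 in starved livers and 10.27 and 10.32 in control livers, which overlapped, and the change was 0.15 ± 0.14, or 0.01 without starved 1.

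Of 17 probe sets for 11 other bile acid genes, 0 passed the limma test over all probe sets, and at an unadjusted p under 0.05 there were 5 higher and 2 lower. Cyp8b1, which adds the hydroxyl that defines cholic acid, read 12.69 and 12.69 in starved livers and 10.84 and 11.24 in control livers. It was 3.14-fold higher, with an adjusted p = 0.0567 in limma. With all arrays kept, it passed at 0.0499 without _x_at and _s_at probe sets and at 0.0342 with trend and robust settings. It did not pass with the replicate block (limma, adjusted p = 0.147), after further quantile normalization (0.0727) or without dim probe sets (0.06465). With 1 array left out, its change ran from 1.44 without control 1 to 1.85 without control 2. Cyp7a1, the rate-limiting enzyme, was 3.97-fold higher on 1422100_at (limma, adjusted p = 0.0899). Both changes were larger than those of Hsd3b7 and Akr1d1, and these differences between genes were not tested. No comparison of level between genes is made, because each probe set has its own scale.

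Hsd17b10 gave the largest changes of the family. The enzyme sits in mitochondria, where it oxidises short-chain hydroxyacyl-CoA in isoleucine breakdown, acts on steroids as well, and forms part of mitochondrial RNase P. On 1448286_at it read 13.21 and 13.12 in starved livers and 12.07 and 11.65 in control livers. On 1438391_x_at, a type of probe set that may hybridise to related transcripts, it read 12.40 and 12.17 in starved livers and 10.97 and 10.54 in control livers. Every starved reading exceeded every control reading by at least 1.05 on the first and 1.20 on the second probe set. The changes were 1.31 ± 0.17 and 1.53 ± 0.18 (SE), and over single arrays left out they ran from 1.10 to 1.52 and from 1.31 to 1.74. Of all probe sets, 99.77% and 99.86% had a lower change.

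Hsd17b12 reduces the keto group in each round of fatty acid elongation in the endoplasmic reticulum membrane. On 1450011_at it read 11.60 and 11.96 in starved livers and 12.22 and 12.40 in control livers, and on 1450010_at 9.78 and 10.54 in starved livers and 10.70 and 11.06 in control livers. The groups were apart on both, and starved 1 was the lowest array on each. The changes were -0.53 ± 0.16 and -0.72 ± 0.27 (SE), or -0.35 and -0.34 without starved 1.

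The windows before Hsd17b10 (chrX:152001646-152001895, plus strand) and Hsd17b12 (chr2:94157910-94158159, minus strand) are given because these genes had changes of opposite sign. Capitals mark CCAAT and GGGCGG in either orientation, on GRCm38.p6. Both windows hold both motifs.
Hsd17b10: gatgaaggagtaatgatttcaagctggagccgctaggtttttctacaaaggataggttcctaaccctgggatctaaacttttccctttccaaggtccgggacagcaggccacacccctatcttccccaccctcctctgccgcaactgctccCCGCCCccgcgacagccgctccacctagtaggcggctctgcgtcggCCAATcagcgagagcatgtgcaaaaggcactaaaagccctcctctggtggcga
Hsd17b12: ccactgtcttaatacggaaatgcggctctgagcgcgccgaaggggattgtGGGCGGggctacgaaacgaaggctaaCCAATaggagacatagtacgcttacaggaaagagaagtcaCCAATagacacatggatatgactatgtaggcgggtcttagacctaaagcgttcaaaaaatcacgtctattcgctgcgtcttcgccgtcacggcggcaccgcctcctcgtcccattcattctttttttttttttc

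Hsd17b11 and Hsd17b13 are paralogs that lie next to each other on chromosome 5 and whose proteins sit on lipid droplets. Hsd17b11, which is also found in the endoplasmic reticulum and acts on androgens, read 13.40 and 13.42 in starved livers and 12.71 and 12.44 in control livers on 1434642_at. On 1421011_at it read 9.33 and 9.65 in starved livers and 9.02 and 8.21 in control livers. The groups were apart on both probe sets, while control 2 was the lowest array on each. The changes were 0.83 ± 0.14 and 0.87 ± 0.28 (SE). Without control 2 they came to 0.70 and 0.47, and without control 1 to 0.97 and 1.28.

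Hsd17b13 read 5.99 and 5.80 in starved livers and 5.44 and 5.68 in control livers on 1425589_at. Both starved readings lay above both control readings, by 0.12 at the closest. The change was 0.33 ± 0.14 (SE), from signals below the median of each array. A filter that removed the dimmest 40% of probe sets would have taken out this probe set and Hsd17b6 1449386_at and kept the other 13.

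The windows before the neighbouring pair are shown side by side on GRCm38.p6, minus strand, for Hsd17b11 (chr5:104021797-104022046) and Hsd17b13 (chr5:103977389-103977638). Capitals mark CCAAT and GGGCGG in the first, and in the second AGGTCA, the core motif of nuclear receptors, all in either orientation.
Hsd17b11: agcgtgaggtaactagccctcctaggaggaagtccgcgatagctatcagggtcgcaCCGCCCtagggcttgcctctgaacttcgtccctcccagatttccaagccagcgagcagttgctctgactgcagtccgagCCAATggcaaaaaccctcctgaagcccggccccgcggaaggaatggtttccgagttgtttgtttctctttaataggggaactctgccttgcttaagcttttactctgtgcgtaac
Hsd17b13: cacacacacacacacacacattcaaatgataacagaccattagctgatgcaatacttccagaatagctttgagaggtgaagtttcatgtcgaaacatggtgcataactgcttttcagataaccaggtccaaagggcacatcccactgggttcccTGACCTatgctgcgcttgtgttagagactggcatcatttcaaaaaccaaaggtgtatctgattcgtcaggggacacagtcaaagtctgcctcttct

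**Figure D2:**
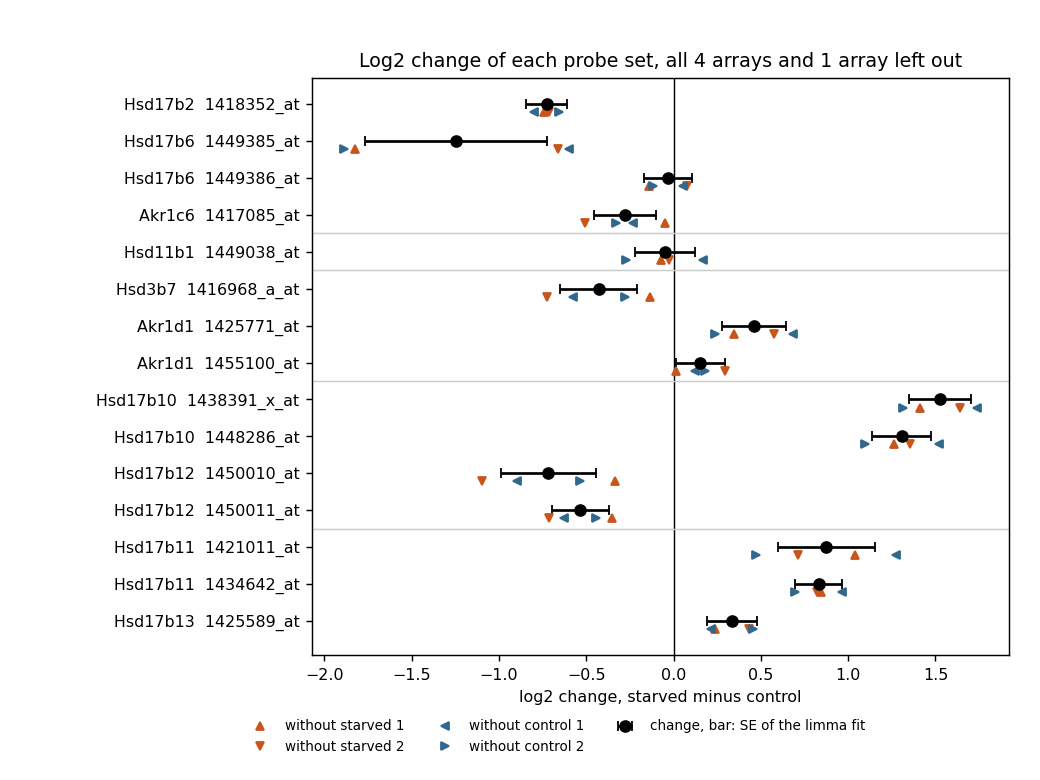
Log2 change, starved minus control, of each member probe set (black points, bars are the SE of the limma fit), with the change after each of the 4 arrays was left out (triangles). Grey lines separate sex steroid, glucocorticoid, bile acid, acyl-CoA and lipid droplet enzymes from top to bottom. Hsd17b10 and Hsd17b11 stay above 0 and Hsd17b2 and Hsd17b12 below 0 with any 1 array left out, while Hsd11b1 and Hsd17b6 1449386_at cross 0.

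By substrate, the sex steroid enzymes were lower on 4 of 4 probe sets, with changes from -1.25 to -0.03 and groups apart on 3. The change of -0.03, of Hsd17b6 1449386_at, came to 0.08 without starved 2 and 0.05 without control 1. The lipid droplet pair was higher on 3 of 3, from 0.33 to 0.87. That pair includes Hsd17b11, which acts on androgens too, so the sign by substrate depends on how the genes are grouped. The pair that acts on acyl-CoA as well as steroids split, from -0.72 to 1.53. By compartment, the 4 genes of the endoplasmic reticulum membrane were lower on 5 of 5 probe sets, from -0.73 to -0.05, with groups apart on 3. Hsd17b6, also of the endoplasmic reticulum, was lower on 2 of 2. Hsd17b11, found both there and on lipid droplets, was higher on 2 of 2, at 0.83 and 0.87, so the sign was not shared across that compartment. The 1 mitochondrial gene was higher on 2 of 2. These groupings were not tested. The cytosolic aldo-keto reductases ran from -0.28 to 0.46. Of the 5 genes with 2 probe sets, all had the same sign on both, and the pair differed by 0.04 for Hsd17b11, 0.18 for Hsd17b12, 0.22 for Hsd17b10, 0.31 for Akr1d1 and 1.21 for Hsd17b6. In whole liver, fewer cells of a type and less RNA per cell cannot be told apart.

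RefSeq promoter windows on GRCm38.p6 were found for 9 of the 10 members, with Hsd17b2 missing. The 250 bases before each start were searched on both strands. CCAAT, the CCAAT box, was in 6 of the 9 genes and in 33.8% of all 32851 windows, and GGGCGG, the GC box, in 4 genes and 32.7% of windows. TATAAA, the TATA box, was in 1 gene, Akr1c6, and 12.4% of windows. AGGTCA was in Akr1d1 and Hsd17b13 and in 14.0% of windows. A direct repeat of AGGTCA with 1 base N between the copies, the type of element that PPAR-alpha binds, was in 0 member windows and 0.0335% of all windows. Each direct repeat contains the single motif by construction, and no other motifs overlapped in the printed windows. A match is a run of letters and says nothing of binding.

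Neighbours along the chromosome were read within 3 protein-coding places of each member. Of 54 such genes that are no members, 34 were measured by a probe set annotated to them alone, and 0 passed the limma test over all probe sets. At an unadjusted p under 0.05 in limma there were 4 of the 34, near the 11.5% of all probe sets. G0s2, an inhibitor of triglyceride lipase that lies beside Hsd11b1, read 10.54 and 12.13 in starved livers and 9.86 and 9.57 in control livers, and was 3.08-fold higher (limma, adjusted p = 0.311). Trim24, a coregulator beside Akr1d1, read 8.78 and 8.62 in starved livers and 7.35 and 7.55 in control livers, a change of 1.25 (limma, adjusted p = 0.0604). The remaining genes of these 4 were lower and lie near Hsd17b6. Prim1, a DNA primase subunit next to it, read 6.19 and 6.26 in starved livers and 6.85 and 7.32 in control livers, a change of -0.86 ± 0.18 (SE; limma, adjusted p = 0.186). Rdh16f2, of the retinol dehydrogenase type and 3 places away, read 10.24 and 10.93 in starved livers and 11.41 and 11.06 in control livers, a change of -0.65 ± 0.25 (SE; limma, adjusted p = 0.416). The groups were apart for all 4. Over the 34 measured neighbours they were apart in 5 that were higher and 7 that were lower, beside 21.3% and 20.6% of all probe sets. In the aldo-keto reductase cluster around Akr1c6, the brightest probe sets of Akr1c12, Akr1c13, Akr1c20, Akr1c21 and Akr1e1 had changes of 0.12, -0.0016, -0.20, -0.11 and -0.24. The adjusted p in limma was 0.511 for Akr1e1 and at least 0.793 for the others. The groups were apart for Akr1e1 and Akr1c21. Huwe1 and Ribc1, which flank Hsd17b10, had changes of 0.10 and -0.12.

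**Figure D3:**
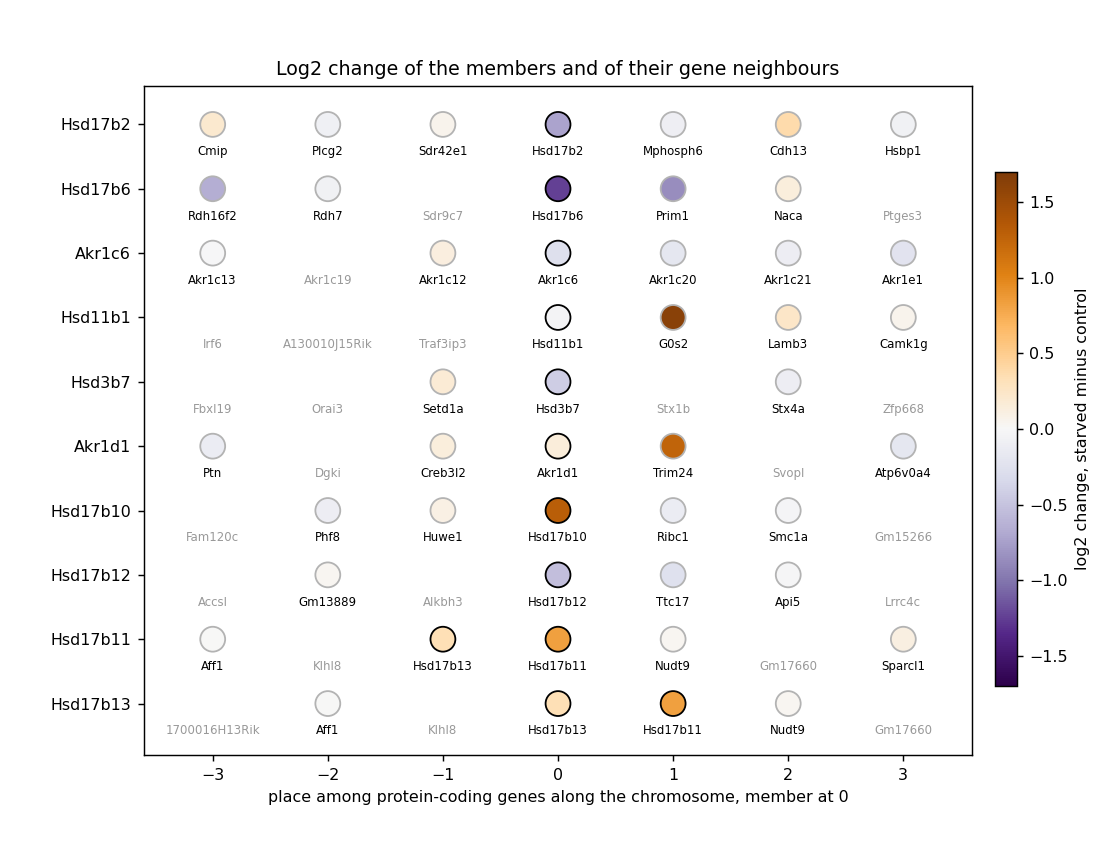
Log2 change, starved minus control, of each member (black rim, place 0) and of the protein-coding genes up to 3 places away along its chromosome, taken from the brightest probe set of each gene. Names in grey without a circle are genes with no probe set annotated to them alone. Hsd17b10 stands between neighbours near 0, and G0s2 is the most strongly coloured neighbour of Hsd11b1.

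Other genes of steroid metabolism were drawn up as lists that leave out the members. They held 77 measured genes with 105 probe sets, of which 0 rose and 2 fell in limma over all probe sets. At an unadjusted p under 0.05 there were 18 higher and 18 lower, and the median change was -0.05. Nsdhl, a 3-beta dehydrogenase of cholesterol synthesis, read 8.34 and 8.88 in starved livers and 11.31 and 11.12 in control livers, and fell by 2.61 on the log2 scale (limma, adjusted p = 0.0379). Nsdhl was the 1 called among 7 probe sets of other 3-beta and 11-beta dehydrogenases, where 0 were higher and 3 lower at an unadjusted p under 0.05. Rdh11, a retinol dehydrogenase, read 6.61 and 6.85 in starved livers and 8.44 and 8.51 in control livers on 1449209_a_at, and fell by 1.74 on the log2 scale (limma, adjusted p = 0.0379). It was the 1 called among 19 probe sets of steroid reductases and retinol-type dehydrogenases, with 3 higher and 4 lower at an unadjusted p under 0.05. Both calls were lost without starved 1, at an adjusted p = 0.133 and 0.18 in limma, and without control 2, at 0.0703 and 0.0785. Without starved 2 the Rdh11 call was also lost (limma, adjusted p = 0.0624).

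The other 17-beta dehydrogenases comprised 5 measured genes with 8 probe sets, of which 0 passed in limma, with 4 higher and 2 lower at an unadjusted p under 0.05. Hsdl2, a peroxisomal relative, averaged 10.01 ± 0.21 in starved livers and 9.07 ± 0.10 in control livers on 1426856_at (SD, n = 2 each), 1.92-fold higher (limma, adjusted p = 0.108). Hsd17b4, the bifunctional enzyme of peroxisomal beta-oxidation, was 1.42-fold higher on 1455777_x_at (limma, adjusted p = 0.208). Of the remaining 3-beta and 11-beta genes, Hsd3b5, which is known as male-specific in mouse liver, read 9.93 and 11.69 in starved livers and 12.61 and 12.98 in control livers. It was chosen after its values were seen, and had a change of -1.99 ± 0.54 (SE) with an adjusted p = 0.275 in limma. The list of male-biased liver genes, 8 measured with 10 probe sets, had 1 higher and 6 lower at an unadjusted p under 0.05 and 0 past the adjusted test.

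Among 12 other aldo-keto reductases with 18 probe sets, 0 passed in limma, with 1 higher and 1 lower at an unadjusted p under 0.05. These were Akr1b10 on 1425684_at, at 0.52 ± 0.14 (SE), and Akr1c20 on 1422061_at, at -0.90 ± 0.21, whose brighter probe set gave -0.20. Akr1b10 read 4.56 to 5.27 on 1425684_at, below the median of each array, and its other probe set gave 0.23. Among cytochromes and conjugating enzymes, 0 of 21 probe sets passed, with 3 higher and 6 lower at an unadjusted p under 0.05. Cyb5r3, the cytochrome b5 reductase, was 1.92-fold lower on 1422185_a_at (limma, adjusted p = 0.0853), and Cyp3a25, a testosterone hydroxylase, 1.83-fold higher (limma, adjusted p = 0.11). The other Cyb5r3 probe sets gave -1.22, -0.79 and 0.07, the last with overlapping groups. Among steroid receptors, related nuclear receptors and steroid carriers of plasma, 0 of 17 probe sets passed, with 2 higher and 2 lower at an unadjusted p under 0.05. The receptor CAR, Nr1i3, was 2.22-fold higher (limma, adjusted p = 0.218), and passed without control 1 (limma, adjusted p = 0.0434).

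**Figure D4:**
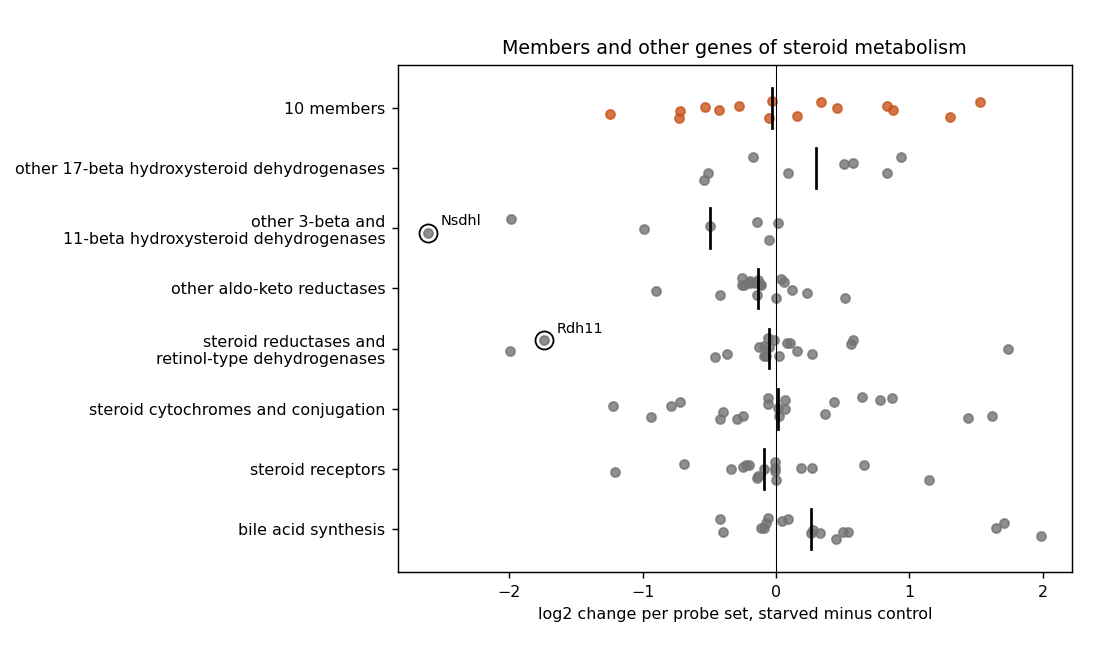
Log2 change per probe set, starved minus control, of the 10 members (orange) and of 7 lists of other steroid-metabolising genes (grey), with a black bar at each median. Circles mark the probe sets past an adjusted p of 0.05 over all probe sets, which were Nsdhl and 1 of Rdh11, and none of the members is circled. Vertical scatter within a row has no meaning.

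Likeness of pattern was measured as the Euclidean distance between log2 values centred on each probe set's mean over the 4 arrays, for the 2 members with the widest spread. The 3 nearest of 20365 other named probe sets to Hsd17b6 1449385_at belonged to Gsta4, Cyp26a1 and Obp2a, at distances of 0.42, 0.63 and 0.64, beside a median of 1.76. Those nearest to Hsd17b10 1448286_at belonged to Snhg5, Acot12 and St3gal5, at 0.18, 0.21 and 0.21, beside a median of 1.35. Acot12 read 11.02 and 11.05 in starved livers and 10.03 and 9.74 in control livers. With 4 arrays, any probe set with a like split between groups comes close, so the distances are a description of these livers.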

How the data were processed

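Liver RNA of 2 starved and 2 control mice was measured on an Affymetrix array. The authors deposited log2 signals, 1 per probe set. The submitters' processing notes name affy and RMA; versions, settings and the set of arrays normalized jointly are not given in these sources. Because RMA equalizes the arrays' distributions, a change shared by every transcript could not be seen. No detection calls were used, and 2 arrays per group limit the precision.

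Of 22690 probe sets, 64 controls were left out. A platform annotation gave 1 symbol to 20380, several to 691 and none to 1555. Of the single symbols, 20351 were matched by gene identifier to a RefSeq table of GRCm38.p6 and took its symbol, whether or not it differed. The fit was lmFit and eBayes in limma 3.58.1 (R 4.3.3), two-sided, with no covariate, over all 22626 probe sets with Benjamini-Hochberg adjustment at 0.05, and it was tested on simulated data. The members and lists were chosen with earlier results of these data known. Named genes were all members, for each list of related genes those past the fit (at most 4) or else the 2 with the smallest p, the nearest patterns, and for marker lists up to 3 genes with the widest range over the arrays. Outside that rule, and chosen after their values were seen, are H6pd, Hsd3b5 and the chromosomal neighbours. The neighbour and motif searches were added after the values were seen. Promoter sequences are RefSeq's. Alternatives were the normalization, a filter on dim probe sets, the unit of the test, _x_at and _s_at probe sets, the variance model, the replicate block, the threshold and each array left out. No array was dropped or imputed in the fit reported.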

Additional observations from a re-analysis of the deposited data

How the results depend on the processing

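With any 1 array left out, the count of called probe sets over the whole array, 13 with all arrays, ran from 2 (without starved 1) to 57 (without control 1), that of members called from 0 to 2, the members' median change from -0.119 to 0.125, members with groups apart from 12 to 14 (11 with all arrays, since 3 arrays separate more easily), and related probe sets called from 0 (without starved 1) to 4 (without control 1), with 1 without control 2. With 1 probe set per gene, 8 genes were called, the members' median was -0.16, 7 of 10 members had groups apart and 1 related gene, Nsdhl, was called. With probe sets averaged within each gene the members' median was again -0.16, with 7 apart and 1 related gene called. Without _x_at and _s_at probe sets 23 were called. With trend and robust settings 59 were called, among them 2 member probe sets, both of Hsd17b10. The replicate numbers were treated as names of samples only. The correlation of same-numbered deviations was 0.04 over probe sets, but with 2 numbers it cannot show whether they mark pairs. On Hsd17b6 1449385_at, replicate 1 stood above replicate 2 by 1.16 in starved and 1.29 in control livers. With the replicate number as a block 0 probe sets and 0 related ones were called (adjusted p = 0.146 for Nsdhl and Rdh11 in limma). At an adjusted p of 0.01, 0 probe sets and 0 related ones passed. Of the 15 member probe sets, 13 kept the sign of their change in every setting run, and Hsd11b1 and Hsd17b6 1449386_at did not when 1 array was left out. That count is a weak check. The variance model, the replicate block and the choice of probe sets leave the change of a probe set as it is. For the 11 with groups apart, leaving out 1 array cannot turn the sign. Of the 4 that overlapped, Hsd3b7 and Akr1d1 1455100_at kept theirs. With 2 livers per group the median SE of a change was 0.13, and changes far above that size could go uncalled. Those of Hsd17b10, at 1.31 and 1.53, did so in the main fit. A member that was not called may therefore still have changed.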
